A study of Mus musculus with 24 samples.

Results

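The clustered Hox genes encode homeodomain transcription factors and lie in 4 mouse clusters, Hoxa on chromosome 6, Hoxb on chromosome 11, Hoxc on chromosome 15 and Hoxd on chromosome 2. Chromatin accessibility at these genes was read from ATAC-seq peak lists of mouse embryonic stem cells. Members were taken by symbol from GENCODE vM21, as Hoxa, Hoxb, Hoxc or Hoxd followed by a number, which gave 38 genes described here of 21938 protein-coding genes. 10 lie in Hoxa, 10 in Hoxb, 9 in Hoxc and 9 in Hoxd. The clusters span chr6:52162417-52260880, chr11:96194316-96368256, chr15:102921103-103036852 and chr2:74668310-74765142 (GRCm38). A promoter counted as called when a deposited peak lay within 1 kb of an annotated start. All peaks from 100 kb before to 100 kb after each cluster were also taken, as windows reaching 250 bp to either side of a peak summit that were called by at least 2 libraries. There were 264 such windows, 167 inside the clusters and 97 in the flanks, of 233706 windows over the genome.

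The 24 libraries form 12 groups of 2. All come from the E14 embryonic stem cell line with CTCF AID, in which the endogenous CTCF carries an auxin-inducible degron and is removed by the auxin IAA. 3 derived lines overexpressed a control, wild-type CTCF or mutated CTCF. The control line was taken untreated and 12 h into IAA treatment, and the lines with wild-type or mutated CTCF only 12 h into it. The other CTCF AID cells, all without IAA, carried hairpins: shluci, a control hairpin, or 1 of 2 hairpins (shRNA1, shRNA2) against Chd4, and likewise shluci, shRNA1 and shRNA2 for Chd8. CTCF AID cells in serum, untreated or treated with IAA for 12 h, form the last 2 groups. The growth protocol given for all samples is serum-free, with LIF and 2 kinase inhibitors, so for the serum groups the 2 labels differ. The labels do not say what the CTCF mutation changes, from which promoters the proteins and hairpins were expressed, whether a line is 1 clone, or whether replicates came from separate cultures. The spread given below is therefore that between these libraries and may be technical. Peaks of accessibility cannot show how far CTCF, CHD4 or CHD8 protein fell.

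Hox genes give cells their position along the body axis. Low-numbered (anterior) members are active first and towards the head, and high-numbered (posterior) members later and towards the tail and limb ends. In embryonic stem cells the clusters are largely silent and covered by Polycomb repressive complexes, which methylate H3K27 and ubiquitinate H2A over CpG-rich promoters. CTCF is a zinc finger protein that binds between Hox genes and beside the clusters, and several of these sites are known as boundaries between active and repressed parts of a cluster. CHD4 is the remodelling ATPase of the NuRD complex and CHD8 is a related chromodomain helicase that binds CTCF.

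Candidate CTCF sites were windows holding the 14 bp CTCF consensus with at most 1 mismatch on either strand. 8 of the 264 Hox windows held it (3.03%, against 5.57% of all windows), 4 in the Hoxa region, 3 in the Hoxb region, 1 in the Hoxd region and none in the Hoxc region. With at most 2 mismatches the shares were 21.6% of Hox windows and 21.6% of all windows. The 6 motif windows that both libraries of at least 1 group without IAA called, and W78, the window lost with IAA in both media, are shown as 30 bases around the consensus match, since the results on CTCF turn on them. Sequences are GRCm38 read 5′ to 3′ on the strand of the match, and capitals mark the 14 bases aligned to the consensus.
W7: tcctgctgCCGCTAGGGGGCGCcccggggg
W82: cccagtctCCAGCGGGTGGCGCtcgagtcc
W91: agaaaattCCAGGAGATGGCAGtgtggctc
W100: cgcagccgCCACGAGATGGCGCactcccga
W134: aggaatggCCACCAGAGGGGGGtagacggc
W181: gggaggggCCGGCAGGGGGCGGcagcggat
W78: aggaatcgCCAGCAGAGCTCGCtttagtac

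Positions are counted from 1 at the 5′ end of the consensus, with the consensus base first. W7 (chr2:74655393-74655893, minus strand, A3G) lies in a coding exon of Evx2, the homeobox gene beside Hoxd13. W82 (chr6:52204322-52204822, minus strand, A6G) covers the start of Hoxa5, and W91 (chr6:52221717-52222217, minus strand, Y5G, where Y is C or T) lies between Hoxa7 and Hoxa9. W100 (chr6:52240380-52240880, minus strand, Y5G) lies in the 5′ part of Hoxa10, 224 bp from its start. W134 (chr11:96145571-96146071, plus strand, C12G) lies in an intron of Ttll6, 48495 bp from Hoxb13, and W181 (chr11:96346031-96346531, minus strand, A3G) in a coding exon of Hoxb3. W78 (chr6:52197306-52197806, minus strand, G10C and G11T) lies between Hoxa4 and Hoxa5, 5803 bp from the Hoxa4 start, inside an annotated intron of Hoxa3.

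3 promoters are shown for the range of calls among members: Hoxd10 was called by the most libraries, Hoxa2 by few, and the call of Hoxb1 differed with IAA. Each is the 250 bases before the start in the RefSeq table for GRCm38.p6, 5′ to 3′ on the gene's strand. 22 of the 38 members have an entry there. Capitals mark CG dinucleotides, 20 in Hoxd10 (chr2:74691641-74691890), 7 in Hoxb1 (chr11:96365508-96365757) and 6 in Hoxa2 (chr6:52164832-52165081, minus strand).
Hoxd10: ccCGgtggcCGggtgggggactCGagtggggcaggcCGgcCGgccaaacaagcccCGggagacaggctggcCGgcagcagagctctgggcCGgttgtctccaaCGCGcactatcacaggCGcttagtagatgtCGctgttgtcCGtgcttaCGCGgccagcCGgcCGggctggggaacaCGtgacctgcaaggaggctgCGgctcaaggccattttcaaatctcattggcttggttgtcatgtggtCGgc
Hoxb1: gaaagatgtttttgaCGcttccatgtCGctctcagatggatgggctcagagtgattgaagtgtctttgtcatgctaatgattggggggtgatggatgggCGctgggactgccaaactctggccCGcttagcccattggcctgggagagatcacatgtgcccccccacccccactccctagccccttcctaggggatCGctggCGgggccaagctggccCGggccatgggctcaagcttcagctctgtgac
Hoxa2: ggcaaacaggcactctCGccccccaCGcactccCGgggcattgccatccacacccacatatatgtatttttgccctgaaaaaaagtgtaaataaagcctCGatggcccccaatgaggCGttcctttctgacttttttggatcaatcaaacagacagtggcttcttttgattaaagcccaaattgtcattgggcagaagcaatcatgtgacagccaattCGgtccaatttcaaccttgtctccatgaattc

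Over the whole kilobase to either side of a start, members held a median of 89.2 CG dinucleotides (range 37.0 to 199), against 61.0 over all protein-coding genes. Across the 38 genes the number of CG and the number of libraries with a call had a Spearman rho of 0.28. This is a description over genes that share clusters and libraries.

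Lists differed between the 4 sets of libraries (the CTCF lines, the Chd4 set, the Chd8 set and the serum set), from 59786 to 166697 peaks. Within each set they were therefore cut to the shortest list of that set by −log10 p, to 120137 peaks in the CTCF lines, 80619 in the Chd4 set, 135410 in the Chd8 set and 59786 in serum. A peak's percentile is its rank of −log10 p within that list, 100 being the strongest, and 0 is written where no peak was listed, which means below the list's limit and not closed chromatin. 5 of the 8 CTCF-line lists hold a peak on chromosome 1 with −log10 p of 1744 to 1967, and 3 (control line with IAA replicate 1, wild-type CTCF replicate 2 and mutated CTCF replicate 2) have none above 484. The shortest peaks ran from 29 to 70 bp in the hairpin sets and from 112 to 172 bp in the other sets, so between the hairpin sets and the others, set and peak length cannot be told apart. Promoters of all 8 embryonic stem cell markers, among them Pou5f1, Sox2 and Nanog, were called by both libraries in each CTCF-line group. The same held in serum without IAA, while serum with IAA had 7, the Chd8 set 6 to 8 and the Chd4 set 2 to 5. The shares over all genes were 68.1% to 68.9% in the CTCF lines and 63.2% in serum without IAA. In those groups all 3 neural, all 3 mesoderm and 3 or 4 of 4 endoderm markers were called too. These calls therefore do not single out stem cell genes. Of 6 fibroblast markers, 3 (Col1a1, Col1a2 and Thy1) were called by both libraries in each CTCF-line and each serum group, and 1 to 3 in the hairpin groups. Lum and Postn had no call in any library and Dcn in 1.

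In the CTCF lines, at the list length of that set, posterior Hox promoters carried peaks in all 4 clusters, while anterior promoters mostly did not. The peaks that were there were weak against those of other genes. In the control line without IAA, 29 of the 38 promoters were called by both libraries, where the share over all protein-coding genes was 68.7%. By paralogue number these were 2 of 7 anterior genes (1 to 3), 11 of 15 central genes (4 to 8) and 16 of 16 posterior genes (9 to 13). By cluster they were 7 of 10 in Hoxa, 5 of 10 in Hoxb, 8 of 9 in Hoxc and 9 of 9 in Hoxd. The members' share of 76.3% stood above that of all genes at this list length and below it in shorter lists. With all 24 lists cut to 59786 peaks, 15 of 38 were called, against 61.5% of all genes. These were 2 of 7 anterior, 3 of 15 central and 10 of 16 posterior genes, so central genes no longer stood above anterior ones. In serum without IAA, where the lists have that length already, 21 of 38 were called (63.2% of all genes), made up of 3 anterior, 8 central and 10 posterior genes. Of the 16 posterior promoters both libraries called 14 to 16 in the CTCF-line groups (68.1% to 68.9% of all genes). They called 7 to 10 in the Chd8 set (58.5% to 62.2%) and 2 or 3 in the Chd4 set (32.6% to 48.9%), in lists of other lengths. With all 24 lists at one length the counts were 8 to 10 (60.1% to 62.0%), 3 to 5 (46.3% to 51.1%) and 1 to 3 (27.8% to 43.2%). In serum they were 9 or 10.

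**Figure D1:**
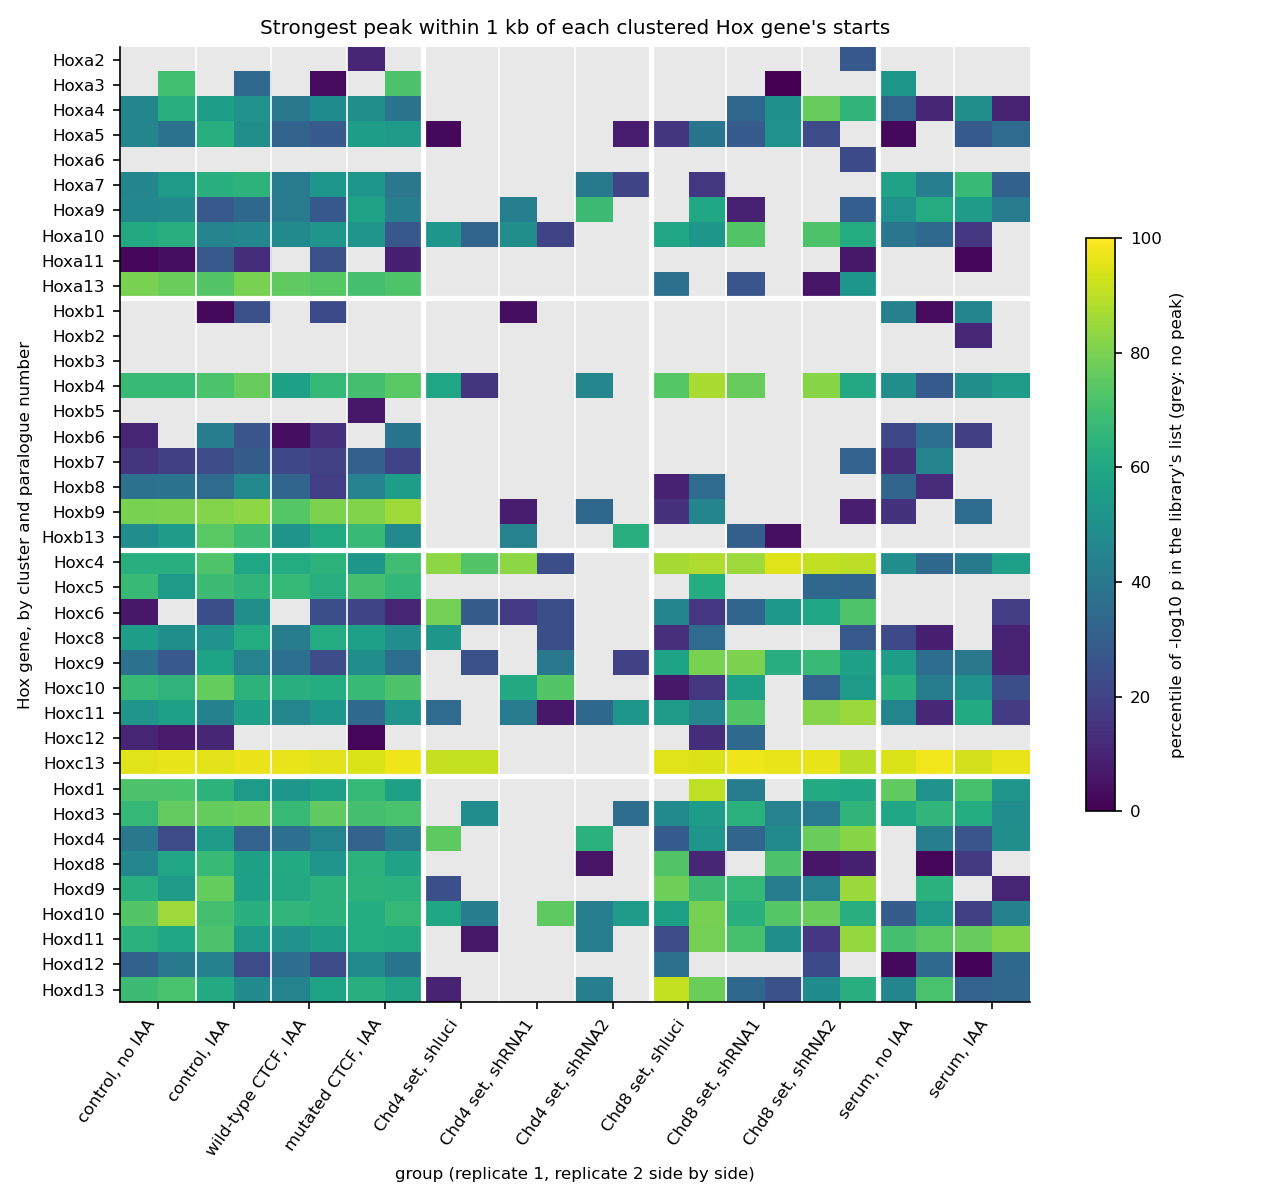
Percentile of the strongest peak within 1 kb of the starts of each of the 38 Hox genes (vertical axis, by cluster and paralogue number) in the 24 libraries (horizontal axis, 2 libraries a group); grey means no peak in the list. Hoxc13 is near the top of its lists except under both Chd4 hairpins, and Hoxb2, Hoxb3, Hoxb5 and Hoxa6 are grey in nearly all libraries.

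Members ranged from 0 to 23 libraries with a call, with a median of 16.0. Hoxd10, which patterns the limb and lumbar motor neurons, was called by 23 libraries, all but Chd4 shRNA1 replicate 1. Hoxc4 and Hoxc11 were each called by 22. At the other end Hoxb3, an anterior gene of the hindbrain, was called by none, Hoxa6, Hoxb2 and Hoxb5 by 1 each and Hoxa2, which specifies the second branchial arch, by 2. The count for Hoxb3 rests on the starts used: with the comprehensive annotation it was 14, and that of Hoxa7 was 24 in place of 15, that of Hoxc6 23 in place of 17 and that of Hoxc5 20 in place of 11.

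Hoxc13, a regulator of hair and nail differentiation, had the strongest peak of all members in 19 of the 24 libraries' lists. Its percentiles were 95.3 and 96.1 in the control line without IAA and 94.6 and 97.7 in serum without IAA. The authors' fold enrichment of these peaks was 13.6 and 14.5 in the first and 8.11 and 8.60 in the second. Other members sat far lower: in the CTCF lines the median percentile of called member promoters was 49.3 to 62.0 by library, against 86.3 to 87.7 over all called promoters. In serum it was 34.0 to 45.3 against 78.6 to 80.1, in the Chd8 set 47.8 to 59.9 against 84.9 to 88.5, and in the Chd4 set at most 55.8 against 71.0 to 77.0. In no library did the member median reach that of all genes.

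Of 27 member promoters called in every CTCF-line library, 3 were called in no serum library (2.26% of all genes so called), where the lists are shorter. With all 24 lists at one length they were 2 of 12 (0.732%), and at the deposited length 1 of 28. Hoxa13, needed for digits and the genital tubercle, had percentiles from 70.7 to 80.0 in the 8 CTCF-line libraries and 0 in all 4 serum libraries. Hoxb13, expressed in the tail bud and prostate, ranged from 47.8 to 74.4 in the former and was also at 0 in serum. Hoxc5, a central gene of the neck region, ranged from 54.4 to 70.6 and was likewise at 0 in serum. With all 24 lists at one length, Hoxa13 was still listed in all 8 CTCF-line libraries, from 41.2 to 59.8, and so was Hoxc5, from 8.33 to 40.9, while Hoxb13 was listed in 6 of them. At the deposited length both serum libraries with IAA listed a peak at Hoxc5, 1 of them listed one at Hoxa13, and none of the 4 serum libraries did at Hoxb13. Medium and line differ together between these sets and cannot be told apart.

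The 4 CTCF-line groups differed little in the number of member promoters called. Both libraries called 31 of 38 in the control line with IAA (68.9% of all genes), 28 with wild-type CTCF (68.1%) and 28 with mutated CTCF (68.7%). The Hoxd cluster stayed at 9 of 9 in all 4 groups, but at 6 or 7 of 9 with all 24 lists at one length. The hairpin sets were lower: 6 in Chd4 shluci (48.9%), 5 in Chd4 shRNA1 (39.2%), 3 in Chd4 shRNA2 (32.6%), 19 in Chd8 shluci (59.1%), 13 in Chd8 shRNA1 (58.5%) and 19 in Chd8 shRNA2 (62.2%). In serum with IAA the count was 17 (63.6%). The order of the serum groups turned at the deposited length, with 22 called without IAA (63.7%) and 25 with it (65.7%). No anterior member was called by both libraries in any Chd4-set group, shluci included, but at the deposited length Hoxd3 was in shluci and shRNA2 and Hoxd1 in shRNA1.

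**Figure D2:**
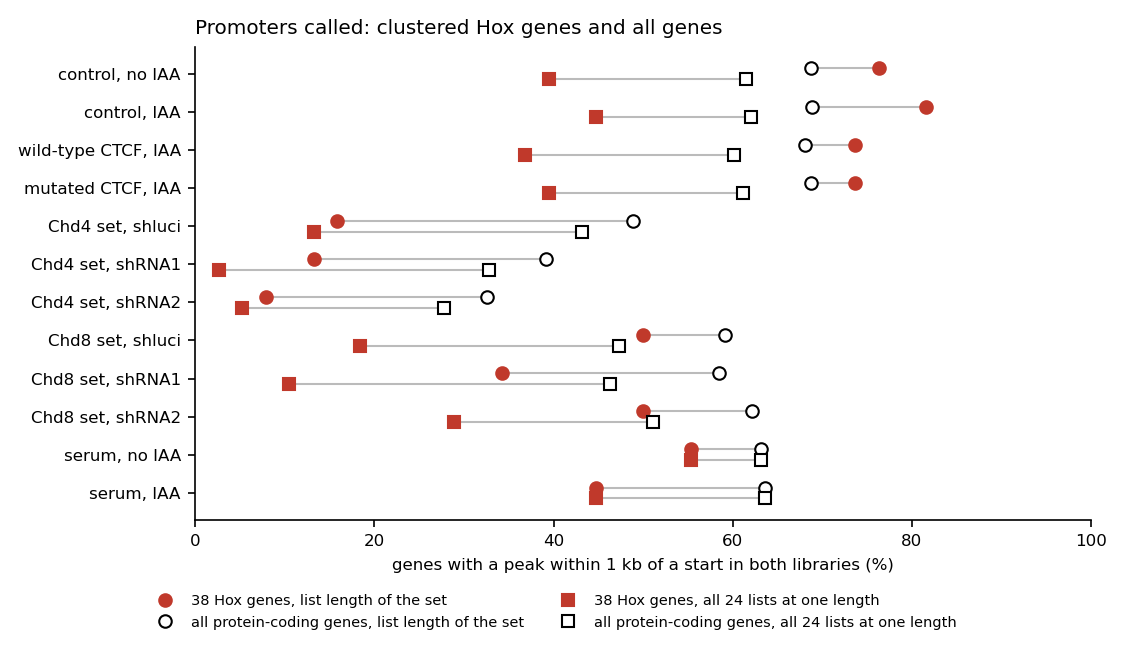
Share of genes with a peak within 1 kb of a start in both libraries of a group (horizontal axis, percent) for the 38 Hox genes (red) and all 21938 protein-coding genes (open), with lists at the length of their set (circles) and all 24 lists at 59786 peaks (squares). Hox genes stand above all genes only in the 4 CTCF-line groups at the longer list length, and below them in all 12 groups at 59786 peaks.

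Other genes of the pathway behaved as follows. All 13 cofactors and upstream factors (the PBX, MEIS and PKNOX partners of HOX proteins, Cdx2 and the retinoic acid receptors) were called by both libraries in every CTCF-line group, as were 17 or 18 of 18 Polycomb genes. In the Chd4 set 9 of 18 Polycomb genes were called in shluci, 5 in shRNA1 and 3 in shRNA2, where the shares over all genes also differed, at 48.9%, 39.2% and 32.6%. Of 21 homeobox genes outside the clusters, 18 or 19 were called in the CTCF-line groups and 12 in serum without IAA. Among the 26 annotated neighbours 19 were called in the control line without IAA. The shares over all genes were 68.1% to 68.9% in the CTCF-line groups and 63.2% in serum without IAA, near those of the neighbours and of the homeobox genes in serum. Hottip, the long noncoding RNA gene at the 5′ end of Hoxa, and Meox1, an unclustered homeobox gene, had no call in any library.

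CTCF degradation in serum-free cells was read by comparing the control line with and without IAA. A window was counted as lost where a peak was listed by both untreated libraries but by neither treated one, and as gained where it was the other way round. Few Hox windows were lost, 1 of them with the CTCF motif, and gained windows lay mainly in the Hoxb and Hoxc regions. 6 of 151 Hox windows were lost (6.60% of all windows) and 11 of 66 gained (9.38%). Of the windows that could be gained, 7 of 25 were in the Hoxb region, 3 of 12 in Hoxc, 1 of 16 in Hoxd and 0 of 13 in Hoxa. An exact permutation of 2 libraries against 2 cannot give a two-sided p under 0.333, so these are counts without a test. With only peaks of −log10 q of at least 10 the number gained was 2.

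Of 5 motif windows that both libraries called without IAA, 1 was lost, W134 in the Hoxb flank (34.8% of motif windows over the genome). Its percentiles were 68.0 and 74.4 without IAA and 0 and 0 with it. W91, between Hoxa7 and Hoxa9, held at 69.5 and 66.6 without IAA and 74.7 and 67.6 with it. W7, beside Hoxd13, was at 40.5 and 43.1 and then at 57.9 and 40.0. The groups overlapped or stood higher with IAA at W91 and W7. W100 at Hoxa10 was called in all 4 libraries, but lower with IAA, at 24.3 and 44.2 against 60.7 and 62.9. W82 at Hoxa5 was weak, at 7.01 and 18.9 without IAA and 0 and 49.5 with it, the last value coming from a long peak that reached it from the gene body.

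Over both media together, a window can be tested by exact permutation within medium (36 arrangements, smallest two-sided p 0.0556). The 6 windows were chosen by calls without IAA, 1 side of this contrast, which favours a fall, so their values are a description. The difference with minus without IAA was −32.1 percentile points at W100 (p = 0.0556) and −46.6 at W134 (p = 0.167 by the same exact test, 0.0556 with the lists at their deposited length). It was −1.2 at W91 (p = 0.833), 3.5 at W7 (p = 1.00), 5.9 at W82 (p = 1.00) and −0.9 at W181 (p = 0.944, exact). Of the other 2 motif windows, named after their values were seen, W103 in the coding exon of Hoxa11 was called by 1 control library without IAA and 2 with it and by 0 and then 1 in serum, a difference of 10.2 (p = 0.167, exact), and W190 was called in none of these libraries. After Benjamini-Hochberg adjustment over all 233706 windows each of the 8 values was 1.00, so none passed. The signs at W91 and W181 turned with the lists at their deposited length, to 1.5 and 0.5.

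**Figure D3:**
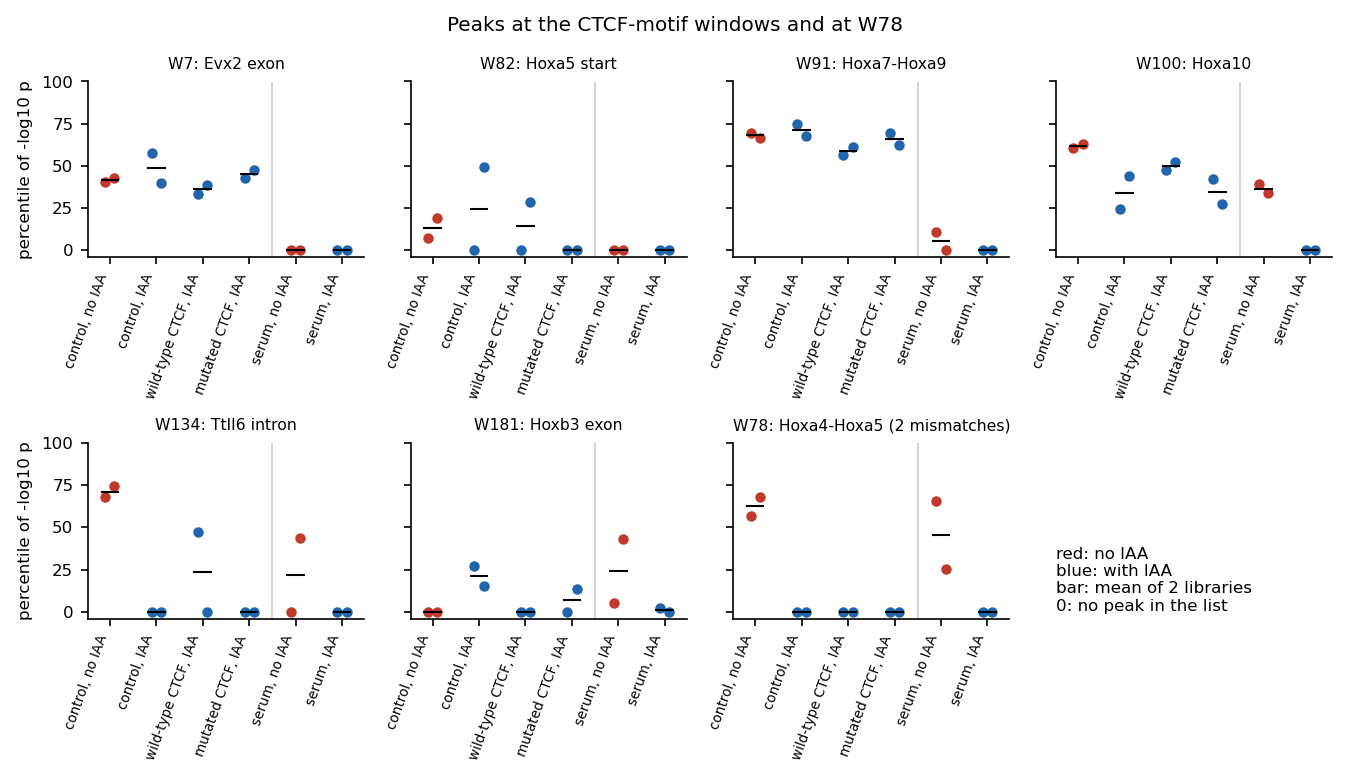
Percentile of −log10 p (vertical axis, 0 where no peak was listed) at the 6 motif windows and at W78 in the CTCF lines and in serum, 1 point a library and a bar at the mean of 2; red is without IAA and blue with it. W134 and W78 fall to 0 with IAA in the control line, while W91 and W7 do not.

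The gains at Hoxb1 made up the one promoter change among members in this medium. Hoxb1, which sets the identity of rhombomere 4 in the hindbrain, had no peak without IAA and percentiles of 2.20 and 24.8 with IAA, making it 1 of the 6 uncalled members (1.38% of uncalled genes gained). None of 29 was lost (0.517%), though Hoxa10 was with all 24 lists at one length and Hoxa9 at −log10 q of at least 10. Around it 4 windows were gained: W184, 1922 bp upstream, at 9.78 and 20.2 with IAA, W185 at the start and W186 in the coding exon, which share 1 long peak, and W187, 9231 bp away, at 18.9 and 32.9. All 4 were at 0 in both control libraries without IAA. In serum without IAA W187 was at 41.7 and 67.2 and W185 and W186 at 43.5 and 2.82, while W184 was at 0 in both. These peaks are weak and close to the limit: at the deposited length 1 library without IAA also called the Hoxb1 promoter, and the call was no longer a gain. The other 3 gains in the Hoxb region lay in introns of Ttll6, on either side of the lost window W134, and W133 among them reached 44.3 and 40.8.

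Losses without the motif included W47 in the Hoxd1 intron, at 72.2 and 71.6 without IAA and 0 in both with IAA, although the Hoxd1 promoter itself stayed called at 64.6 and 54.3. W72, in an exon of 5730596B20Rik between Hoxa2 and Hoxa4, went from 67.5 and 58.4 to 0 and 0. W78, whose sequence is shown above, went from 56.8 and 68.3 to 0 and 0. W151 and W168 in Hoxb were lost from low values, 34.0 and 1.31 in the former and 5.07 and 16.6 in the latter.

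**Figure D4:**
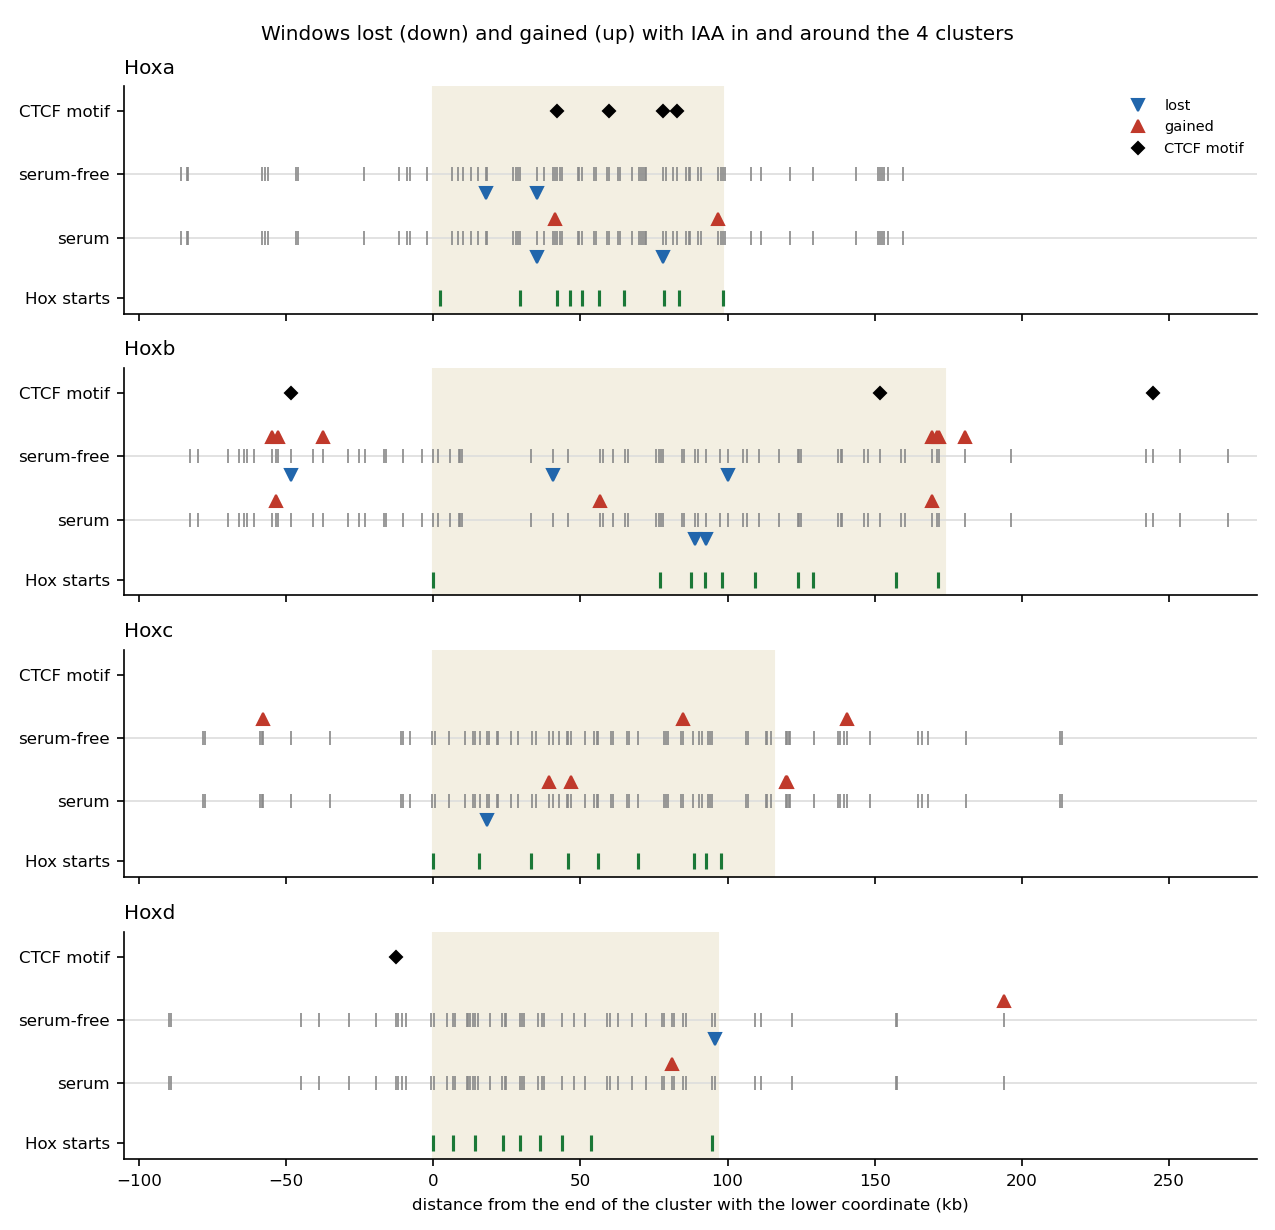
Windows in and 100 kb around the 4 clusters by distance from the cluster end with the lower coordinate (horizontal axis, kb), with those lost (blue, down) and gained (red, up) with IAA in each medium, motif windows (black) and the starts of the members (green). The shaded span is the cluster; in serum-free cells 7 gains lie in the Hoxb panel, at both of its ends, out of 25 windows there that could be gained.

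In serum the same degradation was compared in CTCF AID cells. Hoxb7 and Hoxb8, central genes of the trunk, lost their promoter peaks, and 10 windows were gained. 5 of 93 Hox windows were lost (8.58% of all windows) and 10 of 121 gained (3.54%). Of the 121 windows that could be gained 73 lay inside the clusters, and so did 7 of the 10 gains. These numbers move with the list length: at the deposited length 3 were lost and 18 gained, and at −log10 q of at least 10 none was lost and 2 were gained. 2 of 21 promoters were lost (0.793%) and none of 11 gained (1.57%), though at the deposited length Hoxc5 and Hoxc6 were gained. At Hoxb7 the percentiles were 12.9 and 44.9 without IAA and 0 and 0 with it. At Hoxb8 they were 32.8 and 12.1, then 0 and 0. These groups did not overlap, but with the lists at their deposited length both IAA libraries listed a peak at Hoxb7 and neither did at Hoxb8. In the serum-free control line both promoters stayed called with IAA, Hoxb7 at 23.8 and 29.6 and Hoxb8 at 34.8 and 46.9. The difference between media was not tested.

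Of 2 motif windows called in serum without IAA, 1 was lost (40.8% over the genome), W100 at Hoxa10, from 39.2 and 34.0 to 0 and 0. At the deposited length 1 IAA library listed W100, at 25.8, and it was no longer lost. Hoxa10, which patterns the uterus and the lumbar spine, kept a peak within 1 kb in 1 IAA library, at 15.9. W91 was called by 1 serum library without IAA, at 11.1, and by neither with IAA. W210, between Hoxc12 and Hoxc11, went from 51.3 and 43.7 to 0 and 0, while its neighbour W211, reached by the same long peak without IAA, remained at 0.776 and 5.63. Among the gains, W249 and W250 beyond Hoxc4 share 1 peak at 39.5 and 34.1, absent from the serum lists without IAA. W81 in the Hoxa5 coding exon rose to 28.4 and 34.8, W223 in the Hoxc10 intron to 50.8 and 24.1 and W109 in the Hoxa13 intron to 33.4 and 24.1, each from 0 in both libraries. At the deposited length 1 library without IAA listed W81, W109 and W250, which were then no longer gains, while W223 and W249 still were. The serum-free control line called most of these windows already without IAA. W249 and W250 were at 80.8 and 81.2 there, W223 at 67.6 and 64.9 and W81 at 45.7 and 37.9, while W109 was at 0 in both libraries.

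1 of 79 Hox windows that could be lost in both media was (3.04% of windows over the genome), and 1 of 42 that could be gained in both was (0.247%). The lost one, W78 between Hoxa4 and Hoxa5, was at 65.7 and 25.4 in serum without IAA and 0 and 0 with it. At the deposited list length the serum libraries with IAA listed it at 6.55 and 16.5, so there it was lost only in serum-free cells. The gained one, W184 upstream of Hoxb1, was at 0 and 0 in serum without IAA and 2.62 and 33.7 with it. The Hoxb1 promoter was called in serum already without IAA, at 43.5 and 2.82, and by 1 library with IAA, at 45.0. No Hox window was lost in one medium and gained in the other.

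The lines that overexpressed CTCF were compared with the control line, all under IAA; these comparisons use the same 2 control libraries with IAA as the degradation comparison, so a value high or low in those libraries enters each of them. With wild-type CTCF, 14 of 163 Hox windows were lost (4.82%) and 2 of 47 gained (8.10%). With mutated CTCF, 7 of 163 were lost (3.63%) and 5 of 47 gained (7.68%). At the deposited length the numbers lost and gained were 7 and 5 with wild-type and 5 and 8 with mutated CTCF, and at −log10 q of at least 10 they were 5 and 6, and 3 and 5, so the balance of losses and gains depends on the list. At the Hoxb1 promoter the percentiles were 0 and 22.5 with wild-type CTCF and 0 and 0 with mutated CTCF, and W184 was at 0 in all 4 of these libraries. Hoxb1 was the only member promoter lost with mutated CTCF (0.470%), and none was lost with wild-type CTCF (0.589%). No promoter was gained in either line (0.958% in each). The Hoxb1 loss was absent with starts within 2 kb, with the comprehensive annotation and at −log10 q of at least 10, and with all 24 lists at one length Hoxa4 was lost in both lines instead.

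Windows lost on degradation differed in whether a peak was there under wild-type CTCF. W72 was called in both wild-type libraries, at 54.9 and 61.7, and in 1 mutated library, at 56.3. W134 was called in 1 wild-type library, at 47.2, and in neither mutated library; at the deposited length both wild-type libraries listed it, at 59.1 and 6.24. W151 went the other way, at 0 in both wild-type libraries and at 38.8 and 8.44 with mutated CTCF, and W168 was at 0 and 2.36 with wild-type and 0 in both with mutated CTCF. W78 was at 0 in all 4 libraries, and W47 was at 0 in both wild-type libraries and at 0 and 2.16 with mutated CTCF. Of 5 motif windows that could be lost with wild-type CTCF, 1 was (2.23% over the genome), W181 in Hoxb3, from 27.2 and 15.4 to 0 and 0. It was at 0 and 13.5 with mutated CTCF. At the deposited length 1 wild-type library listed W181, at 10.6, and it was no longer lost. W112, 518 bp before Hoxa13, was lost with wild-type CTCF, from 73.4 and 79.8 to 0 and 0, while the Hoxa13 promoter stayed called at 75.4 and 73.9. W173, 84 bp before Hoxb4, a gene used to expand blood stem cells, was also lost, from 71.7 and 16.4, and was at 70.7 and 74.6 with mutated CTCF. The Hoxb4 promoter itself stayed called by both wild-type libraries, also with all 24 lists at one length. At the deposited length 1 wild-type library listed W173, at 8.10, and it was no longer lost.

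Set against each other, wild-type CTCF lacked 8 of 150 windows that both mutated libraries called (3.78%) and held 1 of 62 that neither called (4.86%). The counts in these lines turn on which libraries are used. Among libraries with the strong chromosome 1 peak alone, 50 windows were lost and 13 gained with wild-type CTCF and 34 and 21 with mutated CTCF. Among those without it, they were 36 and 15, and 35 and 20. Each such count compares 1 library with 1, which lets more windows differ.

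**Figure D5:**
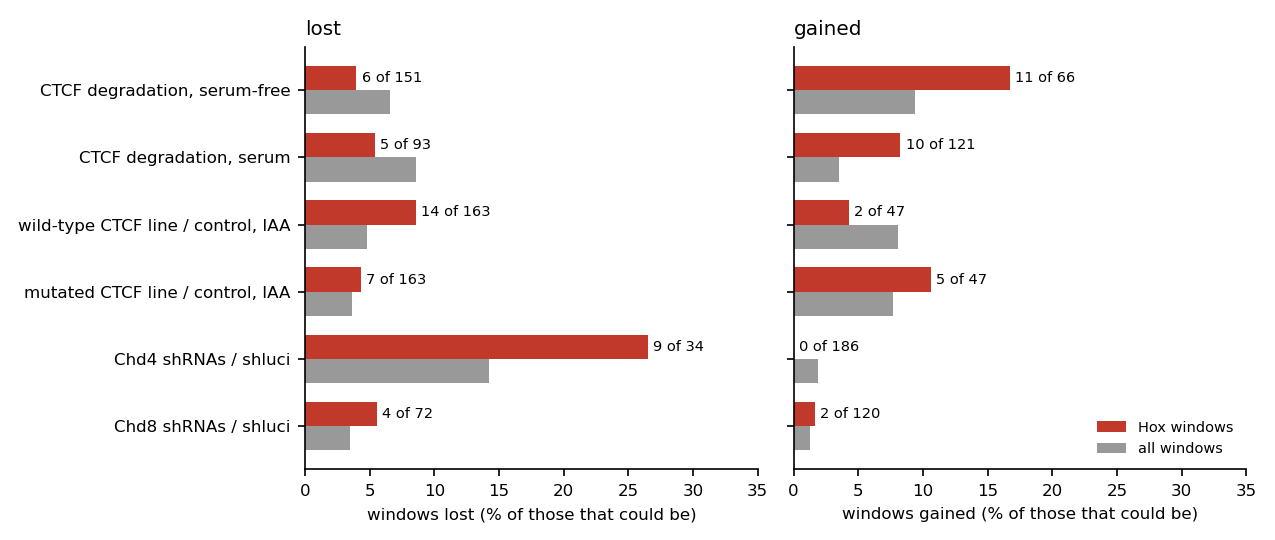
Share of windows lost (left) and gained (right) in each comparison, as percent of those that could be, for the Hox windows (red, with counts) and all windows of the genome (grey). The Chd4 comparison has the highest share lost, 9 of 34 Hox windows, and none gained of 186.

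Under hairpins against Chd4, a window was lost when both shluci libraries and none of the 4 hairpin libraries called it. 9 of 34 Hox windows were lost (14.2% of all windows) and, by this count of calls, none of 186 was gained (1.92%). The number lost was 15 at the deposited list length and 4 in lists cut to 50% of the shortest, and 28 when the first shluci library was left out and only the other had to call the window. The window lost at Hoxc13 was high in the lists of both shluci libraries. Its promoter peak, W203 (chr15:102920555-102921055), 298 bp before the start, was at 91.3 and 91.2 in shluci and at 0 in all 4 hairpin libraries, and the authors' fold enrichment in shluci was 10.3 in both. It was 1 of 6 promoters (4.35%), with no overlap between groups; none of 23 was gained (1.13%). At the deposited list length W203 was still lost, but 1 shRNA2 library listed another peak within 1 kb of the start, so that the promoter was not, and Hoxb7 was lost instead. In the Chd8 set the same promoter was called in all 6 libraries, between 89.4 and 97.3.

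W10, 559 bp from Evx2, went from 25.0 and 38.2 in shluci to 0 in all 4, and W50 in the Hoxd flank from 76.0 and 70.3 to 0. W211 between Hoxc12 and Hoxc11 went from 29.1 and 89.2 to 0, but at the deposited length 1 shRNA1 library listed it, at 33.5. W124 in Calcoco2 went from 49.6 and 26.1 to 0. All 3 windows of the Hoxb region that could be lost were, and none of 8 in Hoxa, where the share over all windows was 14.2%. With either hairpin alone 3 of 8 in Hoxa were lost. These counts are small, and the difference between clusters was not tested. By hairpin, shRNA1 lost 16 of 34 (24.1%) and shRNA2 19 of 34 (28.7%). shRNA2 also lost the Hoxa10, Hoxc4 and Hoxc6 promoters (14.1%) and shRNA1 that of Hoxb4 (9.54%); at the deposited length only Hoxc4 of these 4 was still lost. Hoxd10 was at 59.6 and 41.8 in shluci, 0 and 75.3 in shRNA1 and 42.7 and 54.8 in shRNA2, and so did not change in full. Of 14 neighbouring promoters called in shluci 4 were lost under both hairpins (Evx2, Mir615, Snx11 and Calcoco2). W10 and W124 lie within 1 kb of the Evx2 and Calcoco2 starts, so those losses repeat windows counted above. Also lost were 2 of 9 Polycomb genes (Pcgf6 and Kdm2b) and 1 of 2 endoderm markers (Gata6). The share was 4.35% over protein-coding promoters, to which the microRNA gene Mir615 does not belong. In the other 7 lists 0 of 28 promoters called in shluci were lost.

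Promoters outside the clusters also differed in number between the Chd4-set groups. Of 8 stem cell marker promoters both libraries called 5 in shluci, 4 with shRNA1 and 2 with shRNA2, where the shares over all genes were 48.9%, 39.2% and 32.6%. In lists of equal length the clusters held 19 peaks in each shluci library and 6 to 13 in the hairpin libraries. The part of list quality in the Hox losses was not tested.

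Hairpins against Chd8 moved few Hox windows. 4 of 72 were lost (3.46%) and 2 of 120 gained (1.28%), and 0 of either at −log10 q of at least 10. Without the first shluci library 16 were lost. Hoxb8, 1 of 19 promoters, was lost (0.370%), from 9.11 and 34.9 in shluci to 0 in all 4 hairpin libraries. Hoxa4, 1 of 12, was gained (0.621%), from 0 and 0 to 33.4 and 50.1 with shRNA1 and 76.7 and 65.5 with shRNA2. At the deposited list length 1 shluci library listed Hoxa4, and it was no longer a gain; Hoxb8 was still lost. Neither change was present with all 24 lists at one length or at −log10 q of at least 10. W168 in the Hoxb6 intron was also gained, at 68.5 and 11.7 with shRNA1 and 74.6 and 37.2 with shRNA2, from 0 in both. W159, 297 bp before Hoxb9, was lost from 14.4 and 15.2, but not at the deposited length, where 1 shRNA1 library listed it at 13.5. W180 near Hoxb3 was lost from 32.1 and 44.4. By hairpin, shRNA1 lost 8 of 72 (9.77%) and gained 5 of 120 (4.55%), and shRNA2 lost 10 of 72 (7.35%) and gained 13 of 120 (8.10%). An exact permutation of 2 libraries against 4 gives a two-sided p of 0.0667 at the least, so no single window of the Chd4 or Chd8 comparison can pass.

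1 Hox window was called by all 24 libraries, 0.379% of the Hox windows against 3.72% of all windows. It is W217 (chr15:102955724-102956224), in the intron of Hoxc11, a gene of the hindlimb and lumbosacral region. Within the 8 CTCF-line libraries the shares were alike, 43.2% of Hox windows and 40.4% of all windows.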

How the data were processed

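ATAC-seq peak lists of 24 libraries were used, 1 list a library. Per the submitters' processing notes the tools were Trim Galore, Bowtie2, MACS2 and deepTools and the build mm10; their parameters and versions are not given in the sources used here. The deposited lists hold, per peak, a score, a fold enrichment, −log10 p and −log10 q as the authors' caller gave them, and a summit. Read depth is not in the lists, so no counting error is given.

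Lists were cut by −log10 p to the shortest of their set, windows of 250 bp to either side were placed on summits from the strongest percentile down, and 233706 of 405819 called by at least 2 libraries were kept. The replicate lists were not pooled. Windows were named if they held the CTCF motif and both libraries of a group without IAA called them, or if they were among the 5 with the highest mean percentile of a comparison and direction. Members and lists were chosen with earlier results of these data known. 1 further gene taken by the symbol rule, with 2 windows, is not reported here. Calls and the motif search were tested on simulated data. Alternatives were the list length, −log10 q of at least 10, coverage of 50%, flanks of 50 kb, other motif and start distances and leaving out each library. Python 3.11.15, numpy 2.4.6, pandas 2.3.3, scipy 1.17.1 and matplotlib 3.10.9 were used.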

Additional observations from a re-analysis of the deposited data

How the results depend on the processing

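The counts of calls come from no test and could not be paired. For the 6 motif windows tested over both media, a replicate block that paired same-numbered libraries, chosen after seeing the data, left the differences as they were by construction (−32.1 at W100, −46.6 at W134) and gave exact two-sided p of 0.125 and 0.250 there and 0.875 to 1.00 at the other windows, where 16 arrangements allow no p below 0.125. Same-numbered libraries shared only a number: their deviations correlated over windows at 0.04 in the control line and 0.00 in serum.

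The numbers of windows and promoters below rest on where a list ends. In each pair, lost comes before gained; counts not given stayed within 1.5 times. With lists at their deposited length, serum gave 3 and 18, wild-type CTCF 7 and 5, mutated CTCF 8 gained and the Chd4 hairpins 15 lost. Chd4 shluci then had 10 promoters (52.9% of all genes), and the differences at W91 and W181 turned to 1.5 and 0.5. With lists at 50% of the shortest, serum-free cells gave 4 gained, serum 8 and 3, wild-type CTCF 7 lost, mutated CTCF 4 and 2, Chd4 4 lost, Chd8 2 and 1, and motif windows lost were 2 in serum-free cells and 0 in serum. At −log10 q of at least 10, serum-free cells gave 2 gained, serum 0 and 2 with 0 motif windows lost, wild-type CTCF 5 and 6, mutated CTCF 3 lost and Chd8 0 and 0. Promoters called were then 1, 0 and 0 in the Chd4 set and 2, 2 and 3 in the Chd8 set (each in the order shluci, shRNA1, shRNA2). In serum they were 2 without IAA and 4 with it. The shares over all genes at this cut were not worked out, so these counts cannot be set against them.

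With windows covered by at least 50%, serum-free cells gave 7 gained, wild-type CTCF 1 gained, mutated CTCF 3 lost, Chd4 2 lost and Chd8 0 and 0. With flanks of 50 kb serum-free cells gave 7 gained. Motif windows lost were 0 in both media without mismatch, 4 in serum-free cells and 2 in serum with at most 2 mismatches, and 0 in serum within 50 bp of the centre. With all 24 lists at one length, promoters called were 15 in the control line without IAA (61.5% of all genes) and 17 with IAA (62.0%). They were 14 with wild-type CTCF (60.1%) and 15 with mutated CTCF (61.1%). Chd4 shRNA1 had 1 (32.8%), and the Chd8 set 7, 4 and 11 (47.3%, 46.3% and 51.1%). Starts within 2 kb gave 20 in Chd8 shRNA1, for which the share over all genes was not worked out. Starts within 500 bp, and the comprehensive annotation, which was chosen after seeing the data, moved no group by more than 1.5 times.

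Comparisons within libraries with or without the strong chromosome 1 peak were chosen after seeing the data. With it, serum-free cells gave 12 and 18, wild-type CTCF 50 and 13 and mutated CTCF 34 and 21. Without it, wild-type CTCF gave 36 and 15 and mutated CTCF 35 and 20. Leaving out a library loosens the rule by construction, since fewer libraries have to call, and most libraries moved some count by over 1.5 times. Examples are 34 lost without the second wild-type CTCF library, 28 lost without the first Chd4 shluci library and 16 lost without the first Chd8 shluci library. Leaving out each in turn gave 8 to 12 lost and 16 to 24 gained in serum-free cells, 11 to 16 and 14 to 19 in serum, 19 to 34 and 5 to 9 with wild-type CTCF, 16 to 22 and 7 to 15 with mutated CTCF, 11 to 28 and 0 to 1 for Chd4, 5 to 16 and 2 to 6 for Chd8, and 1 to 2 motif windows lost in each medium. Promoters called were then 30 to 31 and 32 to 32 in the control line without and with IAA. They were 28 to 32 with wild-type and 31 to 31 with mutated CTCF. The Chd4 set had 9 to 12, 8 to 9 and 7 to 10, and the Chd8 set 21 to 24, 15 to 21 and 21 to 26. Serum had 24 to 24 and 20 to 24. Shares over all genes were not worked out for these counts.

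Peak lists limit what can be said: depth is not given, a missing peak is not closed chromatin, and over both media no two-sided exact permutation p can go below 0.0556. Of the 6 directions at motif windows, 4 held at the deposited length; the cause of the changes was not tested.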

Other observations

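In serum all 3 mesoderm markers, T, Mesp1 and Tbx6, were called by both libraries without IAA, and each by only 1 of the 2 with IAA, so none counted as lost. Neural markers were called by both libraries for 3 of 3 genes without and with IAA, endoderm markers for 4 and then 3 of 4, and all genes for 63.2% and then 63.6%. The mesoderm genes were singled out after their values were seen, and no test was made. Six2, a homeobox gene of the kidney, was called by both serum libraries without IAA and by neither with IAA, while Kmt2a, the methyltransferase that maintains Hox expression, was called by neither and then by both. In the control line all 5 of these promoters were called by both libraries with and without IAA, in longer lists: with all 24 lists at one length 2 of the 3 mesoderm markers were called by both without IAA and 1 with it. Nkx2-2, a neural homeobox gene, was called by both control libraries with IAA and by neither with mutated CTCF. Mir10a, a microRNA gene of the Hoxb cluster, was called by both control libraries with IAA, by neither with wild-type CTCF and by 1 with mutated CTCF.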
